A study of Bos taurus with 92 samples.

Results

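The nuclear-encoded subunits of the mitochondrial respiratory chain and ATP synthase were followed in bovine blastocysts, each analysed singly, and in donor cells. Members were the array probes whose single gene symbol fits the names of the subunits, that is symbols beginning with NDUFA, NDUFB, NDUFC, NDUFS, NDUFV, UQCR or ATP5, the SDH subunits, CYC1, and COX followed by a digit. The NDUFAF genes and the COX assembly factors numbered from COX10 upwards were left out, while COX7A2L, an assembly factor of supercomplexes, and ATP5IF1, an inhibitor, fitted the rule and were counted. The rule found 48 genes on 53 probes, of 4452 genes with a single symbol on the array, and all 48 were among the 4398 genes tested. They comprised 22 genes of complex I, 2 of complex II (SDHA and SDHD), 5 of complex III, 7 of complex IV and 12 of complex V. No mitochondrially encoded subunit was among the members. Members were placed by symbol, so NDUFA4, now assigned to complex IV, is counted here with complex I, together with its relative NDUFA4L2.

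Complexes I to IV pass electrons from NADH and succinate to oxygen and, apart from complex II, pump protons out of the mitochondrial matrix. Complex V, the ATP synthase, lets protons flow back and uses the flow to make ATP. In mammalian preimplantation development ATP production by oxidative phosphorylation rises towards the blastocyst stage, when the trophectoderm needs ATP for the sodium pump that fills the blastocoel.

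The 44 embryos were 14 blastocysts from artificial insemination (AI, fertilised in the cow), 15 from fertilisation in vitro (IVF) and 15 from somatic nuclear transfer (NT, in which a donor cell's nucleus replaces that of the oocyte). A further 2 samples were the NT donor cells. Every sample was run on 2 arrays with exchanged dyes, beside 1 common reference RNA, and RNA was amplified for 3 rounds in samples and 2 in the reference. All values below are log2 ratios of sample over reference, centred on the median of the array and averaged over both dye orientations. The labels do not state which dye is the numerator. The ratio was read as Cy5 over Cy3, a likely reading that rests on fibroblast and trophectoderm markers, and under the other reading every sign and order below would turn, with IVF highest in place of lowest among embryos. Values of different genes cannot be set against each other as transcript levels. Breed, embryo age and the culture conditions of the groups are not given in the sources used here. The labels of 8 NT embryos begin with 2_, those of 7 with 3_ and those of 3 AI embryos with H. With no batch or date in the labels, a batch that went with 1 group cannot be told apart from the group.

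Under that reading, 11 or 12 of 17 measured fibroblast markers were higher in donor cells than in each kind of embryo, and 1 was lower. Of 24 measured trophectoderm markers, 17 to 19 were higher in embryos and 1 was lower in each comparison. Of 8 measured markers of inner cell mass and primitive endoderm, 4 or 5 were higher in donor cells and at most 1 was lower. SPARC, at -4.51 to -3.77 in embryos minus donor cells, and LAMC1 were among those of smallest p in each comparison. LAMB1 in AI and NT and STAT3 in IVF stood beside them. The 8 did not include SOX2, POU5F1 or NANOG, so the count says nothing about those genes. Because the reading rests on the fibroblast and trophectoderm markers, their direction is no independent check of the labels. POU5F1, NANOG, CDX2 and IFNT were not measured. The arrays of a sample correlated over probes with r from 0.548 to 0.764 in embryos but only 0.248 and 0.325 in the donor cell samples, so comparisons with donor cells rest on weaker data. Member spots were missing in 0.779% of cells, against 4.56% for all spots.

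Among embryos, the members were lowest in IVF. The mean over the 48 genes ran from 0.17 to 0.61 in the AI embryos, from -0.41 to 0.01 in the IVF embryos and from 0.04 to 0.45 in the NT embryos, and it was -0.58 and -0.55 in the donor cell samples. No IVF embryo reached the lowest AI or NT embryo, whereas the AI and NT ranges overlapped over most of their length. The group means were 0.36 ± 0.13 (SD, n = 14) in AI, -0.17 ± 0.13 (SD, n = 15) in IVF and 0.23 ± 0.12 (SD, n = 15) in NT. Of the 3 kinds of embryo, IVF had the lowest mean for 40 of the 48 members (83.3%), against 36.2% of all genes tested. AI had the highest mean for 35 members (72.9%), against 29.6% of all genes. These are descriptions of the list, and no test was made on its mean. In whole embryos, fewer cells of a type and less RNA per cell cannot be told apart.

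The order was AI, NT, IVF, donor cells in each complex. For complex I the embryo means ran from -0.11 to 0.42 in AI, from -0.56 to -0.15 in IVF and from -0.17 to 0.28 in NT, so that IVF lay wholly below AI. The 22 complex I genes averaged -0.63 and -0.61 in the donor cells. For complex III the ranges were 0.04 to 0.75 in AI, -0.58 to 0.05 in IVF and -0.01 to 0.53 in NT, so that IVF touched both other groups only at its upper end. Complex IV separated IVF from AI without overlap, with 0.34 as the lowest AI value and 0.17 as the highest IVF value. Complex V also separated them, at 0.44 and 0.22. In complex II, with only 2 genes, the ranges of all 3 kinds of embryo overlapped.

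**Figure D1:**
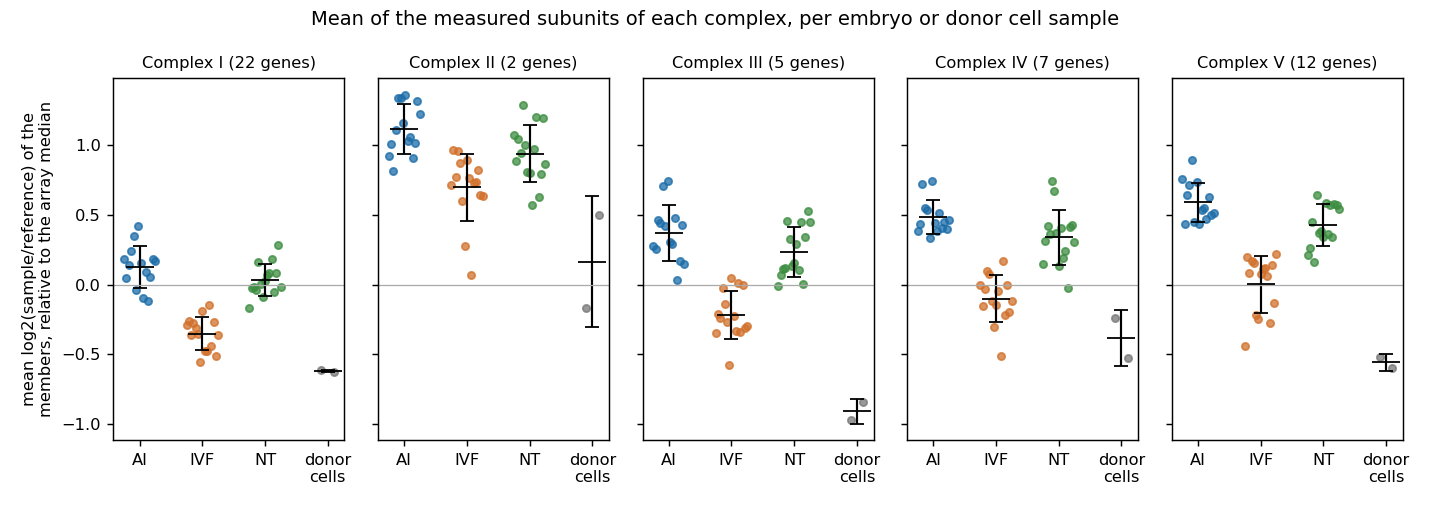
Mean log2 ratio of sample over reference, relative to the array median, of the measured subunits of each complex (panels), in each AI, IVF and NT embryo and each donor cell sample (points), with group mean and SD (bars). In complexes I, III, IV and V the IVF embryos sit below most or all AI and NT embryos. Donor cells sit below all IVF embryos in complexes I, III and V and among the lowest of them in complex IV.

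IVF and AI embryos are labelled by the kind of fertilisation, and what else differed between them, such as culture, is not given. Most subunits were lower in IVF. In IVF embryos 36 of the 48 members were lower than in AI embryos and none was higher, by the limma fit with Benjamini-Hochberg adjustment over 4398 genes. Across all genes 15.6% were lower and 13.9% were higher. The median difference of the members, IVF minus AI, was -0.54, against 0.03 for all genes tested. The fall passed the test for 15 of 22 genes in complex I, 1 of 2 in complex II, all 5 in complex III, 5 of 7 in complex IV and 10 of 12 in complex V. At the level of probes, 39 of 53 member probes were called, all lower, against 26.4% of all probes in either direction. Without centring of the arrays 24 members were lower and none was higher, against 354 lower and 344 higher of all 4398 genes.

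COX7A2, a small subunit of cytochrome c oxidase present in most tissues, had the smallest adjusted p among members. Its value was 0.90 at the lowest, 1.23 at the median and 1.54 at the highest in AI embryos, and -0.68, -0.03 and 0.34 in IVF embryos. The groups did not overlap, and the difference was -1.33 ± 0.11 (SE, adjusted p = 9.37e-13 by limma), a 2.52-fold lower ratio in IVF. NDUFA2, an accessory subunit of the matrix arm of complex I, also had IVF and AI ranges that stayed apart. It ran from -0.47 through a median of 0.05 to 0.42 in AI and from -1.59 through -1.05 to -0.65 in IVF, a difference of -1.06 ± 0.11 (adjusted p = 1.33e-09).

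Other accessory subunits of complex I showed falls of similar size. NDUFB9, in the membrane arm, had a lowest, median and highest value of 0.36, 1.03 and 1.30 in AI and of -1.54, -0.07 and 0.49 in IVF. The ranges overlapped slightly, all 15 IVF embryos lay below the AI mean, and the difference was -1.10 ± 0.14 (adjusted p = 5.32e-08). NDUFA12, an accessory subunit of the matrix arm, fell by 0.99 and NDUFA1, a small membrane subunit, fell by 0.85 on the log2 scale. Of the 17 accessory complex I subunits (NDUFA4 and NDUFA4L2 aside) 13 were lower in IVF, with a median difference of -0.65. Of the 3 measured core subunits only NDUFV1, which carries the NADH binding site and the flavin, was lower, at -0.68 ± 0.15 (adjusted p = 0.000382). The 2 other core subunits, the iron-sulfur protein NDUFS8 and NDUFS3, differed by 0.20 ± 0.08 and -0.22 ± 0.16 and did not pass (adjusted p = 0.0609 and 0.314).

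In complex II only SDHD, a membrane anchor that binds ubiquinone, was lower in IVF. Its lowest, median and highest values were 1.53, 2.07 and 2.47 in AI and 0.04, 1.47 and 1.87 in IVF, and the difference was -0.73 ± 0.14 (adjusted p = 5.86e-05). SDHA, the catalytic flavoprotein, overlapped throughout, from -0.48 to 0.77 in AI and from -0.92 to 1.39 in IVF, and its difference was -0.11 ± 0.16 (adjusted p = 0.648).

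All 5 measured subunits of complex III, the cytochrome bc1 complex, were lower in IVF than in AI embryos. UQCRQ, a small subunit beside cytochrome b, had values from -0.05 through 0.45 to 0.96 in AI and from -1.55 through -0.59 to -0.02 in IVF. The ranges met only at their ends, and the difference was -1.06 ± 0.14 (adjusted p = 9.23e-08). The other 4 moved less, with -0.53 for UQCRH, the acidic hinge protein, and -0.49 for UQCR11. The core proteins UQCRC2 and UQCRC1 had differences of -0.50 and -0.36. UQCRC1 and UQCR11 lost their calls in Cy3 alone and without centring, and UQCRH lost its call without centring.

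In complex IV, besides COX7A2, the falls were -0.74 for COX7A2L, -0.60 for COX8A, -0.59 for COX5B and -0.52 for COX4I1. COX8A and COX5B are structural subunits, and COX4I1 is the regulatory subunit that binds ATP. COX5A, with -0.04 ± 0.14, and the muscle isoform COX6A2, with -0.21 ± 0.23 in 13 IVF and 12 AI embryos with a value, did not pass the test.

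In the ATP synthase the peripheral stalk, which holds the catalytic head still against the rotor, was lower in IVF in all 4 measured genes (ATP5PB, ATP5PD, ATP5PF and ATP5PO), with a median difference of -0.73. ATP5PB ran from 1.69 through 2.28 to 2.56 in AI and from -0.03 through 1.42 to 1.79 in IVF, so that the ranges overlapped narrowly, and the difference was -0.90 ± 0.12 (adjusted p = 3.07e-07). The lowest IVF embryo of ATP5PB was also the lowest of SDHD. All 4 measured small membrane subunits (ATP5ME, ATP5MF, ATP5MG and ATP5MK) were lower too, with a median of -0.53. ATP5IF1, the inhibitor that stops the enzyme from running backwards, was also lower, at -0.92 ± 0.14 (adjusted p = 1.98e-06). In the F1 head, which makes ATP, 1 of 3 subunits was lower: ATP5F1A, the alpha subunit, with -0.55 ± 0.19 (adjusted p = 0.0208). That call was lost in Cy3 alone (-0.28, adjusted p = 0.456 by limma) and without centring (adjusted p = 0.0942). ATP5F1B, the catalytic beta subunit, had a lowest, median and highest value of 0.81, 1.21 and 1.51 in AI and of 1.05, 1.22 and 1.74 in IVF, with nearly equal medians and overlapping ranges. Its difference was 0.09 ± 0.10 (adjusted p = 0.533).

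**Figure D2:**
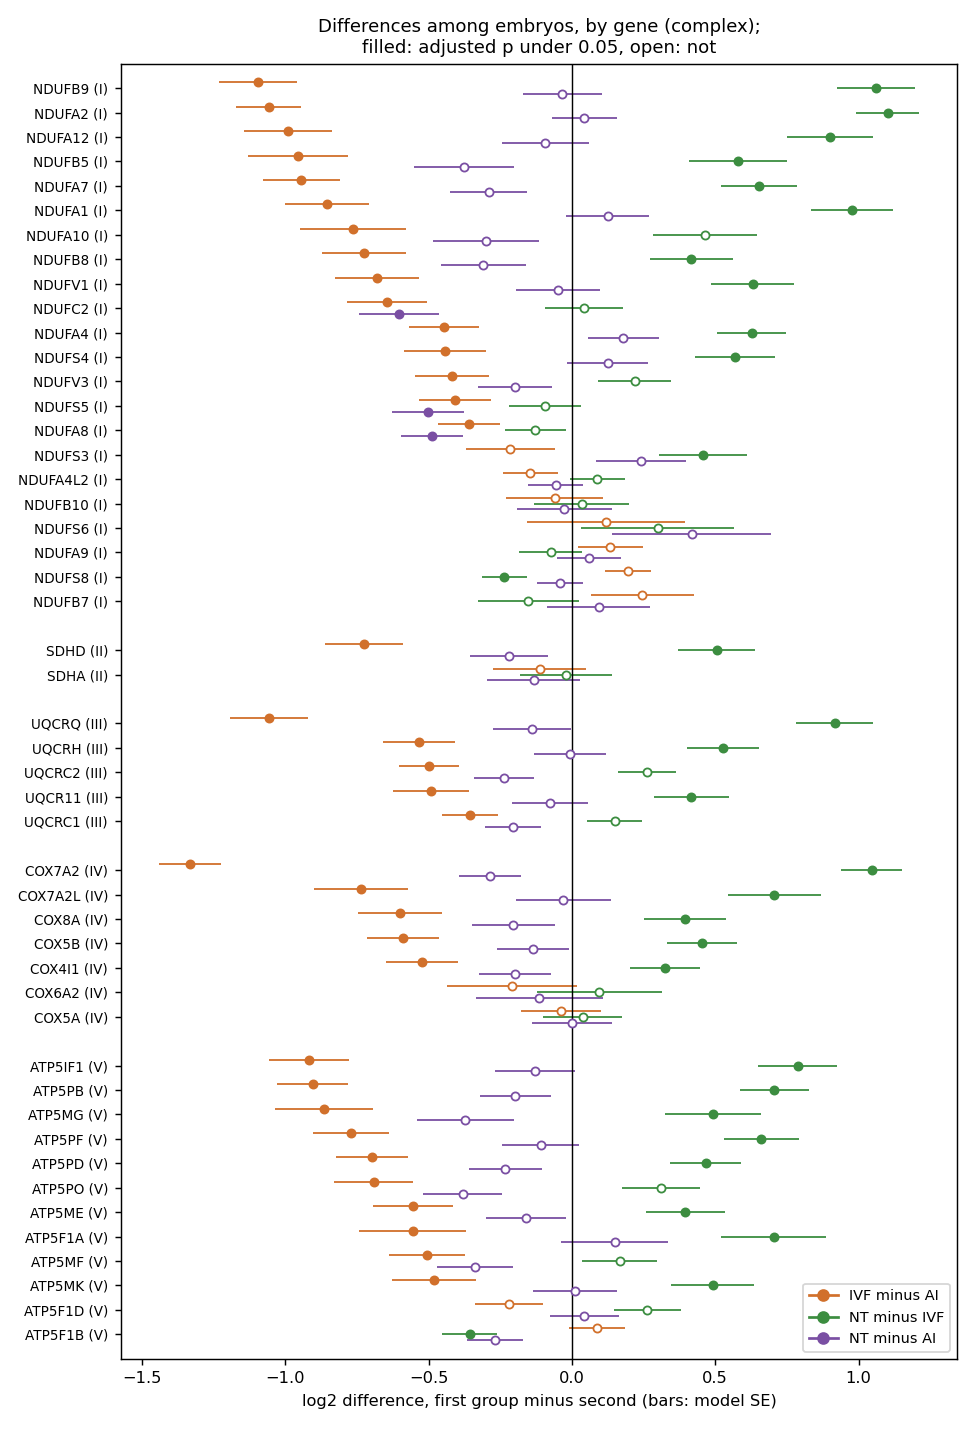
Log2 differences with model SE (bars) of the 48 members, grouped by complex, for IVF minus AI, NT minus IVF and NT minus AI, with filled points for an adjusted p under 0.05 by limma. For most members the IVF minus AI point lies left of 0 and the NT minus IVF point right of it, while NT minus AI points lie near 0, and ATP5F1B and NDUFS8 run the other way in NT minus IVF.

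NT embryos differ from IVF embryos by label in the origin of the nucleus, and what else differed between them is not given. The series title names nuclear reprogramming as the subject. The subunits were higher in NT than in IVF embryos for 28 of 48 members and lower for 2, against 13.9% of all genes higher and 10.3% lower. The median difference, NT minus IVF, was 0.44, against -0.00048 for all genes. This comparison uses the same IVF embryos as the one with AI, so the 2 sets of values are not independent. Higher members numbered 11 of 22 in complex I, 1 of 2 in complex II, 3 of 5 in complex III, 5 of 7 in complex IV and 8 of 12 in complex V. Of 53 probes, 31 were higher and 2 lower, against 23.0% of all probes in either direction.

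NDUFA2 was the member with the largest rise, 1.10 ± 0.11 (adjusted p = 6.23e-10 by limma). Its NT values, -0.59 at the lowest, 0.12 at the median and 0.60 at the highest, all lay above the highest IVF value of -0.65. COX7A2 rose by 1.05 ± 0.11 (adjusted p = 6.23e-10), from an IVF median of -0.03 to an NT median of 0.97. A single NT embryo, at 0.15, fell within its IVF range, and the next lay above it. NDUFB9 ran from 0.45 through 0.94 to 1.30 in NT and rose by 1.06 ± 0.14 (adjusted p = 1.27e-07), with all 15 NT embryos above the IVF mean.

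Further rises were found in complexes I to III. NDUFA1 ran from -1.39 through -0.79 to -0.12 in IVF and from -0.13 through 0.26 to 0.75 in NT, ranges that met at their ends, and rose by 0.98 ± 0.14 (adjusted p = 1.61e-06). NDUFA12 ran from -2.07 through -0.74 to -0.24 in IVF and from -0.71 through 0.01 to 0.58 in NT, and rose by 0.90 ± 0.15 (adjusted p = 1.33e-05). All 15 NT embryos lay above the IVF mean for both genes. UQCRQ, with NT values from -0.21 through 0.19 to 0.84, rose by 0.92 ± 0.13 (adjusted p = 1.49e-06), with ranges that overlapped at their ends. UQCRH ran from -1.91 through -0.98 to -0.86 in IVF and from -1.12 through -0.60 to -0.03 in NT, and rose by 0.53 ± 0.12 (adjusted p = 0.00122). UQCR11 ran from -1.65 through -0.68 to -0.18 in IVF and from -0.66 through -0.22 to 0.17 in NT, and rose by 0.42 ± 0.13 (adjusted p = 0.0147). Both had overlapping ranges. UQCR11 lost its call in Cy3 alone and with the NT embryos labelled 3_ alone. UQCRH lost its call with those labelled 2_ alone (adjusted p = 0.0518 by limma). The 2 core proteins of complex III did not pass, at 0.15 ± 0.10 for UQCRC1 (adjusted p = 0.269) and 0.26 ± 0.10 for UQCRC2 (adjusted p = 0.0542). UQCRC2 lay at the threshold and passed with arrays scaled to equal spread (adjusted p = 0.0477 by limma) and with a value required in every sample. Both core proteins passed with 1 probe per gene and without centring. SDHD rose by 0.51 ± 0.13 (adjusted p = 0.00405), from NT values of 1.24 through 1.81 to 2.29. SDHA had a difference of -0.02 ± 0.16 (adjusted p = 0.945).

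In complex IV, COX7A2L ran from -1.83 through -0.37 to 0.07 in IVF and from -0.43 through 0.10 to 1.16 in NT, and rose by 0.71 ± 0.16 (adjusted p = 0.000955 by limma). COX5B ran from -0.71 through -0.22 to 0.17 in IVF and from -0.46 through 0.10 to 1.00 in NT, and rose by 0.45 ± 0.12 (adjusted p = 0.00455). The ranges of both overlapped. COX5B lost its call with the NT embryos labelled 3_ alone (adjusted p = 0.0523 by limma). In complex V, ATP5IF1 ran from -1.85 through -1.01 to -0.35 in IVF and from -0.71 through -0.10 to 0.32 in NT, and rose by 0.79 ± 0.14 (adjusted p = 2.57e-05). ATP5PF ran from -1.24 through -0.04 to 0.47 in IVF and from 0.09 through 0.52 to 0.84 in NT, and rose by 0.66 ± 0.13 (adjusted p = 0.000168). All 15 NT embryos lay above the IVF mean for both of these genes, with overlapping ranges. ATP5F1A ran from -0.99 through 0.12 to 1.07 in IVF and from -0.09 through 0.84 to 1.64 in NT, and rose by 0.70 ± 0.18 (adjusted p = 0.00339). Its call was lost in Cy3 alone (0.45, adjusted p = 0.219 by limma). ATP5PB ran from 1.50 through 2.07 to 2.37 in NT and rose by 0.71 ± 0.12 (adjusted p = 2.21e-05), and all 15 NT embryos exceeded the IVF mean although the ranges overlapped. The smallest rises that passed were those of COX4I1, at 0.32, and COX8A, at 0.39 (adjusted p = 0.0485 and 0.0378), and both calls were lost in either dye orientation alone.

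The 2 members that were lower in NT than in IVF embryos were the catalytic ATP5F1B and the core subunit NDUFS8. ATP5F1B ran from 0.23 through 1.01 to 1.35 in NT, with 14 of 15 embryos below the IVF mean and overlapping ranges, and fell by 0.36 ± 0.10 (adjusted p = 0.00455). NDUFS8 ran from -0.51 through -0.08 to 0.12 in NT and from -0.13 through 0.09 to 0.62 in IVF, and fell by 0.24 ± 0.08 (adjusted p = 0.0236). Without centring of the arrays, where the median of all genes shifted by 0.38, 37 members were higher in NT than in IVF and none was lower. Of all 4398 genes, 1710 were then higher and 45 lower. The differences of ATP5F1B and NDUFS8 then became 0.025 and 0.15, so that their direction holds only relative to the other genes of the array. Both calls were also lost with the NT embryos labelled 3_ alone, where ATP5F1B differed by -0.15 (adjusted p = 0.368 by limma) and NDUFS8 by -0.18 (adjusted p = 0.224), and NDUFS8 lost its call in Cy5 alone.

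**Figure D3:**
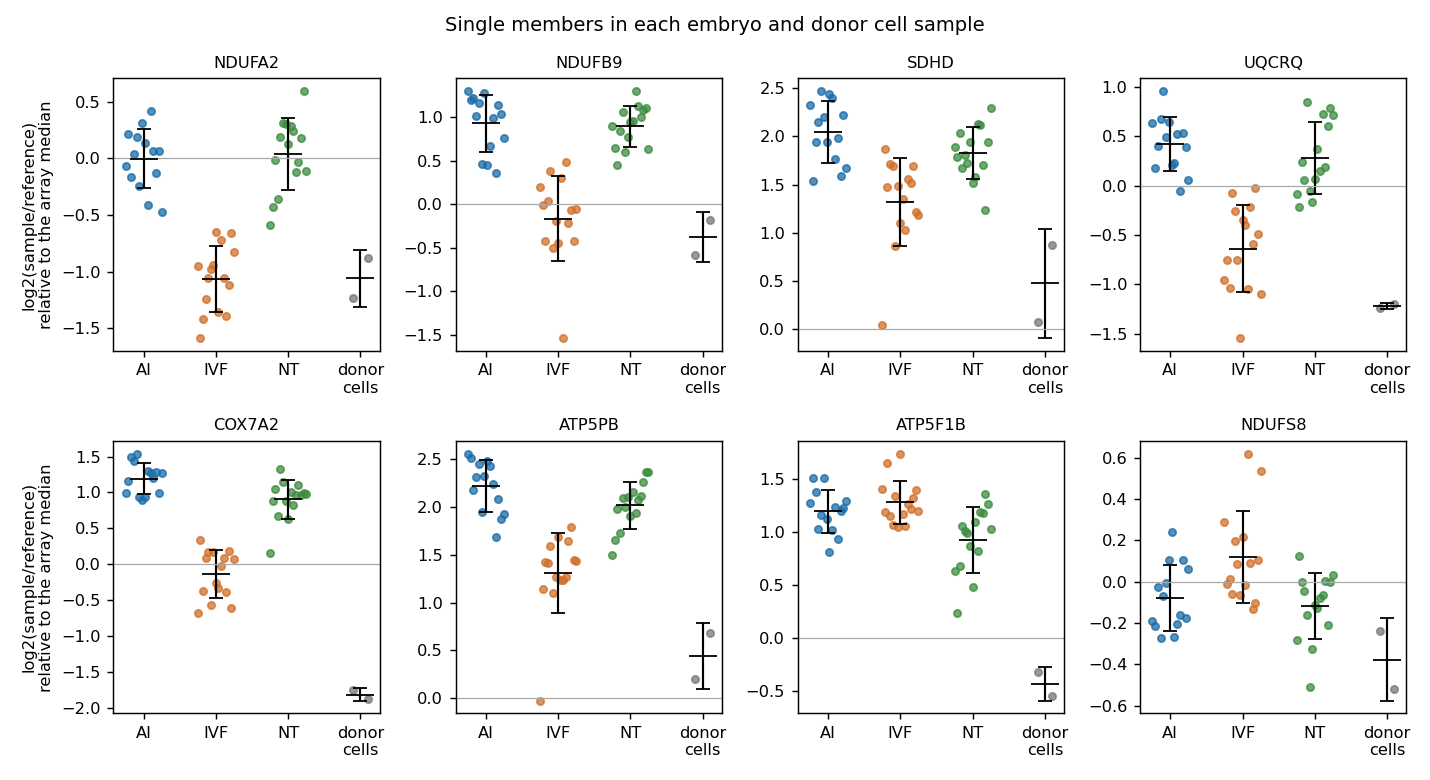
Log2 ratios of sample over reference, relative to the array median, of 8 members in each embryo and donor cell sample (points), with group mean and SD (bars); each panel has its own scale. NDUFA2 in IVF embryos lies wholly below AI and NT, COX7A2 in IVF lies wholly below AI, and ATP5F1B and NDUFS8 are not low in IVF.

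NT and AI embryos were much closer in these genes. None of the 48 members was higher in NT and 3 were lower, against 3.80% of all genes higher and 4.27% lower, so that the members' share of 3 in 48 was not far from the background. The median difference, NT minus AI, was -0.13, against 0.03 for all genes. All 3 called members were accessory subunits of complex I. NDUFA8 had values from -0.64 through 0.16 to 0.47 in AI and from -0.86 through -0.43 to 0.01 in NT. The ranges overlapped, all 15 NT embryos lay below the AI mean, and the difference was -0.49 ± 0.11 (adjusted p = 0.00236 by limma). NDUFC2, with -0.60 ± 0.14 (adjusted p = 0.00368), and NDUFS5, with -0.50 ± 0.13 (adjusted p = 0.00773), are named after their values were seen. These same 3 genes were lower in IVF than in AI embryos, by 0.36 to 0.65 on the log2 scale, and their differences between NT and IVF did not pass the test.

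For the 45 members that did not pass, the 95% intervals of NT minus AI lay between -0.73 and 0.98, and for 33 of them within 0.5 of 0 in either direction. Differences smaller than these bounds were not resolved. COX7A2 differed by -0.29 ± 0.11 (adjusted p = 0.0867), ATP5F1B by -0.27 ± 0.10 (adjusted p = 0.0752) and ATP5PO by -0.38 ± 0.14 (adjusted p = 0.0746). NDUFA2, NDUFB9 and UQCRH had differences of 0.04, -0.03 and -0.01. Without centring, the median of all genes shifted by 0.44, the members' median became 0.28, and 12 members were higher in NT and none lower. Of all 4398 genes, 1978 were then higher and 19 lower, so the members' share of higher genes was below that of all genes. Quantile normalisation kept the same 3 calls, as did scaling of the arrays to equal spread. NDUFA8 and NDUFS5 lost the call with the NT embryos labelled 2_ alone, NDUFC2 lost it with those labelled 3_ alone, and NDUFC2 and NDUFS5 lost it in Cy3 alone. Of 53 member probes 3 were called, all lower, against 7.48% of all probes.

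Against the donor cells, most members were higher in AI and NT embryos and fewer in IVF embryos. In AI embryos 34 of 48 members were higher than in donor cells and none was lower, against 20.4% and 16.6% of all genes. In NT embryos 29 were higher and 1 lower, against 20.1% and 15.4%. In IVF embryos 14 were higher and 2 lower, against 18.5% and 15.8%. The medians were 0.94 for AI, 0.96 for NT and 0.46 for IVF, against 0.0022, 0.036 and 0.032 for all genes. The 3 comparisons share the same 2 donor cell samples, so an error in those samples enters all 3. At the level of probes, 37, 32 and 19 of 53 were called in AI, NT and IVF, against 33.0%, 31.4% and 31.1% of all probes in either direction.

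COX7A2 had the smallest p of the members in AI and NT, and ATP5F1B had it in IVF. COX7A2 lay at -1.88 and -1.75 in the donor cells, below every embryo, and was higher by 3.01 ± 0.22 in AI (adjusted p = 6.26e-16 by limma), 2.72 ± 0.22 in NT (adjusted p = 1.82e-14) and 1.67 ± 0.22 in IVF (adjusted p = 2.11e-08). ATP5F1B, at -0.55 and -0.32 in the donor cells and also below every embryo, was higher by 1.63 in AI, 1.36 in NT and 1.71 ± 0.20 in IVF (adjusted p = 9.22e-10). For the core proteins of complex III the donor cells stood below all embryos as well: UQCRC2 was higher by 1.22 to 1.72 and UQCRC1 by 1.15 to 1.51 over the 3 kinds of embryo. ATP5PB was higher by 1.77 in AI, 1.57 in NT and 0.87 in IVF, and NDUFV1, at -0.80 and 0.01 in the donor cells, by 1.64, 1.60 and 0.97. NDUFV3, an accessory subunit beside NDUFV1, was -1.22 and -0.44 in the donor cells and 0.17 at the lowest in AI, and was higher by 1.52 ± 0.26 in AI (adjusted p = 6.63e-06), 1.32 in NT and 1.10 in IVF.

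Several members showed a difference from donor cells in AI and NT but gave almost none in IVF. NDUFA2 was -1.23 and -0.88 in the donor cells, and its differences were 1.05 in AI, 1.10 in NT and -0.0049 ± 0.23 in IVF (adjusted p = 0.993). NDUFA1 had 0.85, 0.98 and 0.00022, and NDUFA12 had 1.13, 1.03 and 0.14. The test of the difference between embryo kinds for these genes is the comparison of IVF with AI and NT given above, which all 3 passed. NDUFA9, an accessory subunit at the junction of both arms, was by contrast higher than in donor cells by about the same amount in each kind, 0.90 in AI, 0.96 in NT and 1.04 in IVF.

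COX6A2, which in adults is the heart and skeletal muscle form, went the other way. It was 0.88 and 1.49 in the donor cells, with differences of -1.08 ± 0.43 in NT (adjusted p = 0.0451), -1.17 ± 0.43 in IVF (adjusted p = 0.0299) and -0.96 in AI, which did not pass. NDUFS3, a core subunit of the matrix arm of complex I, was -0.31 and -0.21 in donor cells and lower in IVF by 0.98 ± 0.32 (adjusted p = 0.0126). Its differences of -0.76 in AI and -0.52 in NT had the same direction but did not pass. COX6A2 and NDUFS3 are named after their values were seen. The calls of COX6A2 in NT and IVF and of NDUFS3 in IVF were lost without the donor cell sample labelled 8, without that labelled 9 and in Cy5 alone. The NT call of COX6A2 was lost on the deposited scale and with the NT embryos labelled 2_ alone as well. SDHA, UQCRH and COX7A2L did not differ from donor cells by the test in any kind of embryo.

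These counts depend on each donor cell sample. Leaving out the sample labelled 8, or that labelled 9, lowered the number of called members in all 3 comparisons. A single sample then stood for the donor cells, so no counts are given. COX7A2, ATP5F1B, UQCRC1 and UQCRC2 kept their calls in all 3 comparisons without either sample. Without centring, 18 members were higher in AI, 29 in NT and 5 in IVF, and 2 were lower in IVF. Of all 4398 genes, 472, 830 and 407 were then higher in AI, NT and IVF, and 691, 374 and 627 were lower.

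**Figure D4:**
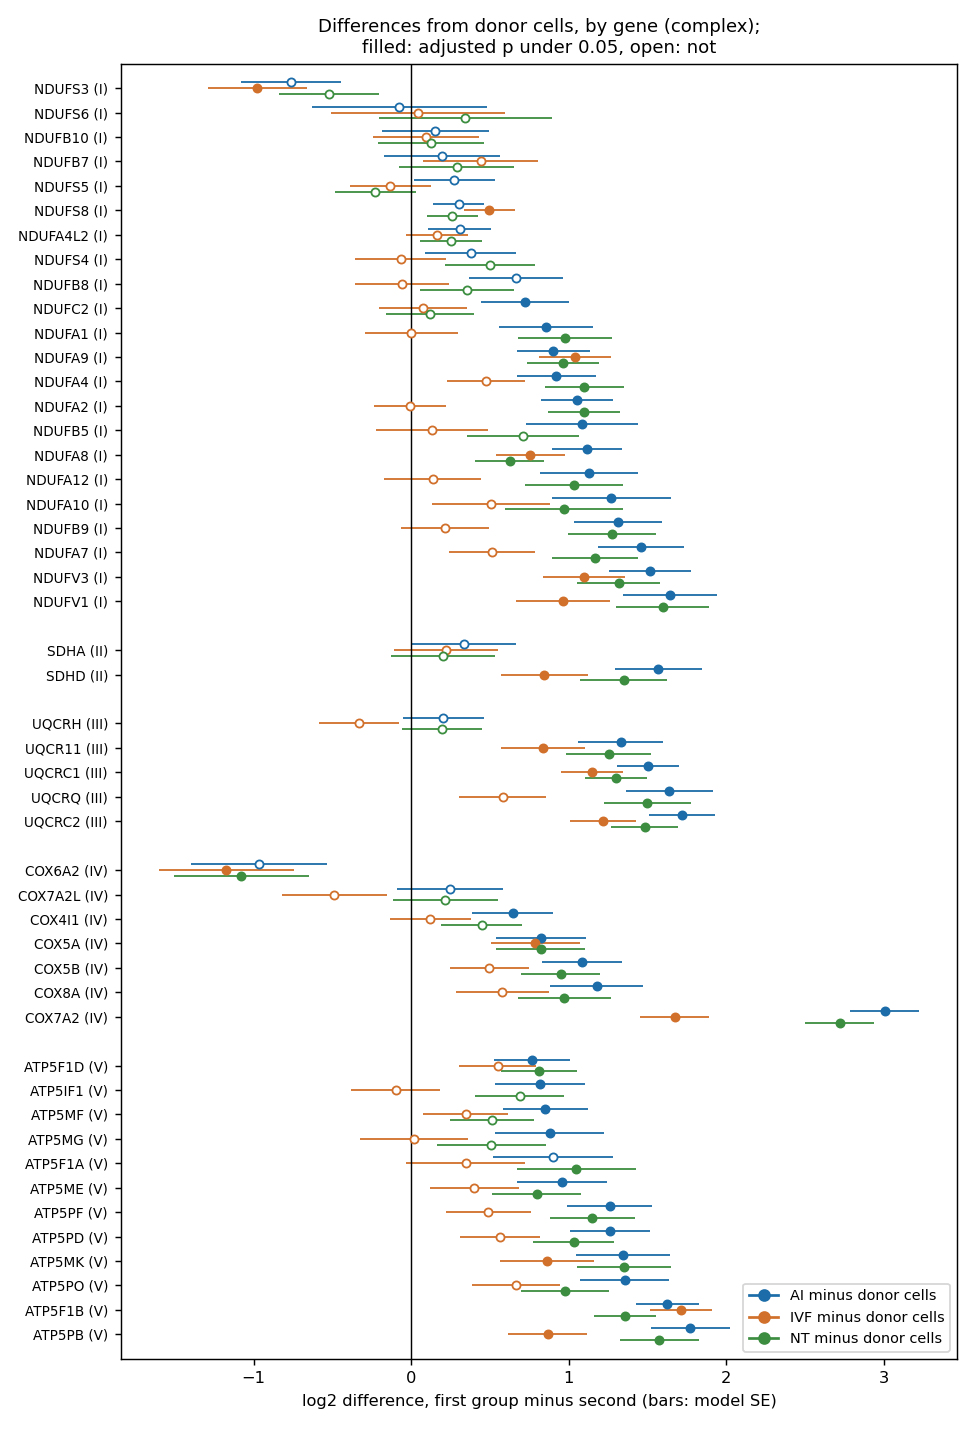
Log2 differences with model SE (bars) of the 48 members, grouped by complex, for AI, IVF and NT embryos minus donor cells, with filled points for an adjusted p under 0.05 by limma. Most AI and NT points lie right of 0, IVF points lie closer to it, and COX6A2 and NDUFS3 lie left of it.

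The members with more than 1 probe were NDUFV3, UQCRC1 and UQCRC2 with 2 each and UQCRH with 3. The 3 UQCRH probes were all called lower in IVF than in AI, from -0.65 to -0.47, and all higher in NT than in IVF, from 0.40 to 0.65. Both UQCRC2 probes were lower in IVF than in AI, at -0.46 and -0.54. The UQCRC1 probes disagreed. In NT minus IVF one gave 0.36 ± 0.09 (adjusted p = 0.00294 by limma) and the other -0.07 ± 0.13 (adjusted p = 0.761). In IVF minus AI the same probes gave -0.45 ± 0.09 (adjusted p = 0.000341) and -0.26 ± 0.13 (adjusted p = 0.134), so the mean of this gene is uncertain. The NDUFV3 probes gave -0.49 (adjusted p = 0.00363) and -0.35 (adjusted p = 0.0565) in IVF minus AI. Every called member had the same sign in both dye orientations in all 6 comparisons. Calls were made on the mean of both orientations, so this agreement was largely fixed beforehand. Sizes could differ between dyes: of the 30 calls in NT minus donor cells, 15 were lost in Cy5 alone and 3 in Cy3 alone.

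Embryos of a kind differed in these genes by about as much as, or less than, in other genes. The median SD over members was 0.32 in AI, 0.43 in IVF and 0.33 in NT, against 0.44, 0.45 and 0.41 over all genes tested. Among the members the median SD was thus largest in IVF embryos.

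Related mitochondrial genes were counted in lists of 10 to 14 measured genes, too few for a share to say much. Of all genes, 15.6% were lower and 13.9% higher in IVF minus AI, and 13.9% were higher and 10.3% lower in NT minus IVF. In NT minus AI 3.80% were higher and 4.27% lower. Of 11 measured assembly factors, 1 was lower and 1 higher in IVF than in AI, 2 were higher and 1 lower in NT than in IVF, and none was called in NT against AI. COX17, the copper chaperone of cytochrome c oxidase, was the assembly factor with the smallest p, with -1.17 ± 0.17 in IVF minus AI (adjusted p = 8.17e-07 by limma) and 0.83 ± 0.17 in NT minus IVF (adjusted p = 0.0002). ECSIT, which takes part in complex I assembly, ran opposite, with 0.37 and -0.33.

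Of 11 measured genes of the tricarboxylic acid cycle and its entry enzyme pyruvate dehydrogenase, 3 were lower and 1 higher in IVF than in AI, and 3 were higher in NT than in IVF. SUCLG2, a subunit of succinyl-CoA ligase, differed by -0.52 and 0.97 in those comparisons, FH, the fumarase, by -0.57 and 0.54, and IDH2, the mitochondrial isocitrate dehydrogenase, was higher in IVF than in AI by 1.10. In NT minus AI 1 of the 11, SUCLG2, was higher, by 0.45. Between 6 and 7 of the 11 were higher in each kind of embryo than in donor cells, against 18.5% to 20.4% of all genes. PDHB, a subunit of pyruvate dehydrogenase, led them with 1.85 to 2.36.

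Among 14 measured carriers and electron shuttles, 4 were lower and 1 higher in IVF than in AI, and 6 were higher and 1 lower in NT than in IVF. ETFA and ETFB, the flavoprotein that brings electrons from fatty acid oxidation to ubiquinone, were lower in IVF than in AI by 0.69 and 1.05 on the log2 scale. The ADP/ATP carriers SLC25A6 and SLC25A5 were higher in NT than in IVF by 1.04 and 0.69. In NT minus AI 1 was higher and 2 were lower, SLC25A6 with 0.49 and VDAC2 and ETFB with -0.36 and -0.48. Against donor cells, SLC25A5 was higher by 2.74 to 3.43, while COQ10A, a ubiquinone-binding protein, had differences of -3.36 to -3.07.

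Of 10 measured genes of mitochondrial biogenesis, 2 were lower in IVF than in AI: SSBP1, which binds single-stranded mitochondrial DNA, by 0.85, and MTERF3, a repressor of mitochondrial transcription, by 0.68. None of the 10 was called in NT against IVF, where SSBP1 differed by 0.49 ± 0.19 (adjusted p = 0.0555 by limma). In NT minus AI, MTERF2 was higher by 1.37. PHB1, the prohibitin scaffold of the inner membrane, was higher than in donor cells by 2.52 to 2.71 in each kind of embryo.

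Markers of cell types were counted beside the subunits. Of the 24 trophectoderm markers, 4 were higher and 5 lower in IVF than in AI, 2 were higher and 8 lower in NT than in IVF, and 5 were lower in NT than in AI. Of all genes, 13.9% were higher and 15.6% lower in IVF minus AI, 13.9% and 10.3% in NT minus IVF, and 3.80% and 4.27% in NT minus AI. The mean of the 24 markers per embryo ran from 1.77 to 2.44 in AI, from 1.59 to 2.17 in IVF and from 1.16 to 2.05 in NT, and it was -0.42 and -0.25 in donor cells. Its median was 1.91 in AI, 2.02 in IVF and 1.69 in NT, and the ranges of all kinds of embryo overlapped. Single markers went both ways. TKDP4, a trophoblast Kunitz domain protein, differed by 0.94 in IVF minus AI and -1.08 in NT minus IVF. ATP1B3, a subunit of the sodium pump, differed by -0.55 and 0.70. DSC2, a desmosomal cadherin, differed by -1.24 in NT minus IVF, and CGN, the tight junction protein cingulin, by 0.54 in IVF minus AI. Of 8 measured markers of inner cell mass and primitive endoderm, 2 were higher and 1 lower in IVF than in AI, and 3 were higher and 2 lower in NT than in IVF. Their means overlapped between the kinds of embryo, from -0.63 to -0.05 in AI, -0.62 to -0.10 in IVF and -0.58 to 0.07 in NT. In donor cells these means were higher, at 0.85 and 0.86, over a list in which SOX2, POU5F1 and NANOG were not measured. The 17 fibroblast markers averaged -1.96 to -1.69 in AI, -2.13 to -1.59 in IVF and -2.04 to -1.69 in NT embryos, and 0.74 and 0.77 in donor cells. Of 3 cumulus markers 1 was higher in IVF than in AI and none was called in NT against IVF or AI. The part of cell composition in the subunit differences was not tested.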

How the data were processed

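The authors deposited 1 log2 ratio of the dye channels per spot for 92 arrays with 16416 spots of cDNA. Per the labels' protocols, amplified RNA was reverse transcribed and coupled to Cy3 or Cy5. Scanner, background correction, normalisation and ratio direction are not given in the sources used here. A fill value of 16.61 was set to missing. The sign was turned where the sample carried Cy3, each array was centred on its median, the 2 spots of a probe were averaged, then the 2 arrays of each sample. Array medians ran from -2.14 to 0.862 as deposited. Probes needed values in at least 50% of the embryos of every kind and in both samples of donor cells, which left 7992 of 8208, and probes of the same single symbol were averaged to 4398 genes. Gene symbols came from the platform annotation, and Entrez IDs tied all 48 members to the RefSeq table.

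All 46 samples entered one limma 3.58.1 model of group means in R 4.3.3, with eBayes, 2-sided tests and Benjamini-Hochberg adjustment over all genes tested at a threshold of 0.05. The fit was tested on simulated data. The number of arrays limits the precision. Embryos are separate samples by their labels. Nothing says that the donor cell samples came from separate cultures, so p-values against them may measure technical spread only. Members, context lists and tests were chosen with earlier results of these data known. Genes were named by a rule that took, per complex, the 4 members of smallest p in NT minus IVF and the 1 of smallest p in each other comparison, members called against the majority among embryos, both complex II genes, ATP5IF1 and COX7A2L. Not every one is given with full values in each comparison. Others are given as ranges and counts or as examples. Alternatives were the deposited scale, quantile and spread normalisation, 1 probe per gene, each dye alone, other missing-value filters, label subsets, single donor samples and a replicate block.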

Additional observations from a re-analysis of the deposited data

How the results depend on the processing

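In IVF minus AI the count of called members stayed within 1.5 times under every alternative except the replicate block. With the embryo number shared by 7 IVF and 7 AI embryos as a replicate block, 21 members were lower, against 31 in the same embryos without the block. Of all genes, 10.4% were called in either direction with the block. The labels do not say whether the numbers pair the embryos. Over all genes, deviations of same-numbered embryos correlated with r from -0.06 to 0.09, which shows no general pairing. A shared effect confined to some genes would not show there. With the sample in Cy3 only, 29 were lower and 3 (ATP5F1B, NDUFA9 and NDUFS8) higher, and with the deposited scale 24 were lower. In NT minus IVF the 30 called members became 37 on the deposited scale, where ATP5F1B reversed to 0.025 and NDUFS8 to 0.15. The NT embryos labelled 2_ alone kept 21 of the 30 calls and those labelled 3_ kept 20, without ATP5F1B and NDUFS8. In NT minus AI the 3 called members became 12 on the deposited scale, 5 with the sample in Cy5 only and 1 in Cy3 only. Of all genes, 45.4%, 12.4% and 4.87% were called in either direction under these settings. NDUFS8 reversed to 0.37 on the deposited scale. In NT minus donor cells 15 members were called with the sample in Cy5 only, and leaving out a donor cell sample gave 19 to 22. In IVF minus donor cells 7 were called on the deposited scale, 5 in Cy5 only and 7 to 9 without a donor sample. In AI minus donor cells 18 were called on the deposited scale and 20 in Cy5 only, against 26.4% and 31.2% of all genes. Leaving out a donor cell sample lowered the count of members in each comparison with donor cells. Of the comparisons of genes named by rule with an alternative, 1790 stayed on their side of the threshold, 95 lost the call, 36 gained one and 3 reversed with a call in either setting. Of the 1790, 86 values without a call changed sign, 25 of them on the deposited scale. Requiring both dye orientations and the block's unblocked counterpart were set against their alternatives after the data were seen. The depth of signal over background could not be examined, because only ratios were used.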
